A study of Caenorhabditis elegans with 2 samples.

Results

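The EGF, Ras and ERK genes described here are 10 genes of the signalling pathway that ends in LIN-1: let-23, lin-7, sem-5, let-60, cnk-1, lin-45, mek-2, mpk-1, eor-2 and lip-1, out of 19973 nuclear protein-coding genes of Caenorhabditis elegans. They were taken by name, and each was examined from 5 kb upstream of its start to its end. The names were drawn up with earlier results of these data known, in which peaks at some of them had been seen, so a high share of genes with a peak may be built into the list and is given as a description.

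In this pathway the EGF-like ligand LIN-3 activates the receptor LET-23, an adaptor and an exchange factor load the GTPase LET-60 Ras, and the kinases LIN-45 Raf, MEK-2 and MPK-1 ERK act in turn. MPK-1 phosphorylates LIN-1, an ETS-domain transcription factor, which in vulval precursor cells holds back the vulval fate until the signal arrives. The same pathway specifies the excretory duct cell and promotes meiotic progression in the germline. The question the binding data address is whether LIN-1 sits at the genes of the pathway that controls it.

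LIN-1 binding was measured by chromatin immunoprecipitation and sequencing (ChIP-seq) in whole animals of strain RW12212, of sex not recorded, whose allele st12212 is a CRISPR insertion of TY1, EGFP and 3xFLAG tags at lin-1 on chromosome IV. Animals had been bleached, arrested by starvation as L1 larvae and grown to L4 larvae at 48 hours. Any tissue of the larva could therefore contribute to a value, and no cell type could be told apart. There was 1 group, with 2 biological replicates that carry the same tagged allele, and the control that the labels point to was not analysed here. The pull-down was with an antibody to GFP according to the description, while the antibody entry of the labels names lin-1. The lists hold 2267 conservative peaks, which had to be reproducible between the replicates, 2329 series peaks, and 1079 and 1348 peaks in the own lists of replicates 1 and 2. Read depth is unknown, and the signal of a peak is the authors' value on a scale they do not state.

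Of the 10 genes, 7 had a conservative summit, the listed position of highest signal of a peak, between 5 kb upstream and the gene end, and none had more than 1. Across all nuclear protein-coding genes the share with such a summit was 14.9%, and among the 8099 genes whose region was as long as those of the 10 (7271 to 16346 bp) it was 17.6%. In the promoter window, from 1000 bp upstream to 200 bp downstream of the gene start, 4 of the 10 had a summit (lin-7, sem-5, cnk-1 and eor-2), against 5.25% of all genes. The other 3 summits lay 1485 bp upstream of let-60, 3674 bp upstream of lip-1 and 4304 bp into mpk-1. The receptor gene let-23 and the kinase genes lin-45 and mek-2 had none, and their starts were 14.36, 8.06 and 24.56 kb from the nearest conservative summit. The regions of the 10 genes add up to 109.8 kb and held 6.37 summits per 100 kb, against 2.24 over the nuclear chromosomes.

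**Figure D1:**
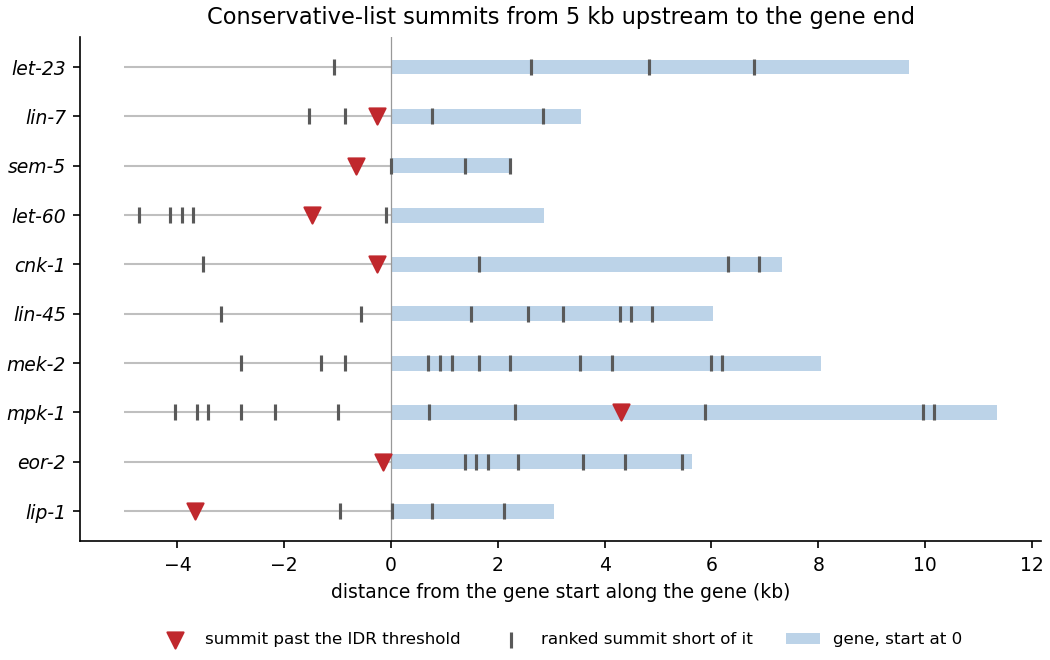
Summits of the conservative ranked list in the regions of the 10 genes, by distance from the gene start in kb, with upstream to the left of 0 and the gene as a bar; triangles mark summits past the IDR threshold and vertical marks the ranked summits short of it. The triangles of lin-7, sem-5, cnk-1 and eor-2 lie within 1000 bp upstream of the start, and let-23, lin-45 and mek-2 have vertical marks only.

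The DNA under the 7 summits is shown because these are the positions of highest signal, and the ETS domain of LIN-1 recognises a GGAA core. Each window runs 50 bp to either side of the conservative summit on ce11 (WBcel235), read 5′ to 3′ on the strand of the gene it is named for. Capitals mark GGAA, or TTCC where the core is on the other strand, and a window without capitals holds neither. The windows follow the conservative summit, and replicate 1's own summit at sem-5 and replicate 2's own summit at mpk-1 lie outside them. The listed cnk-1 peak ends at 10270986, so most of its window to the right of the summit lies outside the listed peak.
cnk-1, plus strand, chrIII:10270934-10271034: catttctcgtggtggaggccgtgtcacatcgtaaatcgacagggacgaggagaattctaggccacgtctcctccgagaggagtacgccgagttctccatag
sem-5, minus strand, chrX:7962331-7962431: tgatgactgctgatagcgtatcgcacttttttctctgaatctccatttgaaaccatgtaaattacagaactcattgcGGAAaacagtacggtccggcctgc
eor-2, plus strand, chrX:14602817-14602917: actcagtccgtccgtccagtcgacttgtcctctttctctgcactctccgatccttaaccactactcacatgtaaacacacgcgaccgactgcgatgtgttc
lin-7, minus strand, chrII:14349629-14349729: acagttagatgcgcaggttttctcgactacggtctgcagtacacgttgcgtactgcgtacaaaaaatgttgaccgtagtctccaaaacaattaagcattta
let-60, minus strand, chrIV:11692523-11692623: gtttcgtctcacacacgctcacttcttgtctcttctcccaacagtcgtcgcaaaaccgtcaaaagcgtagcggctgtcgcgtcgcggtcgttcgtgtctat
lip-1, plus strand, chrIV:6839234-6839334: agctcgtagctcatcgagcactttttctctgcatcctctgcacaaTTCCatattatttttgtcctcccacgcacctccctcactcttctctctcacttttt
mpk-1, minus strand, chrIII:4223754-4223854: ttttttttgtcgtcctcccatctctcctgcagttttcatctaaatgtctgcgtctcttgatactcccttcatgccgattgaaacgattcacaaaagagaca

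Only the sem-5 and lip-1 windows held GGAA on either strand, which is 2 of 7 windows, against 58.2% of the 2243 windows at all nuclear conservative summits and 62.5% of windows of the same length centred 150 bp upstream of all protein-coding gene starts. The longer form CGGAA, which contains GGAA, was found once, at sem-5, 28 bp from the summit. Over all nuclear summits 16.4% of windows held CGGAA, and 15.5% of the windows upstream of gene starts did. The 7-base form CCGGAAG, which contains both, was in none of the 7 windows and in 0.981% of all summit windows. Outside the windows, the nearest CGGAA to the summit was 60 bp away at lin-7, 120 bp at mpk-1, 140 bp at eor-2, 254 bp at let-60, 306 bp at cnk-1 and 514 bp at lip-1, against a median of 184 bp (quartiles 77 and 381 bp) over all nuclear summits. GTTCGANNC, the core of the B box found inside tRNA genes, was in none of the 7 windows and in 5.04% of all summit windows. No summit of the 7 lay within 200 bp of a tRNA gene, where 11.5% of nuclear conservative summits lay. A match is a run of letters and not a measured site, and its absence says nothing about what bound there.

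The receptor gene let-23 (WBGene00002299, chromosome II, 9197512 to 9207213, plus strand) encodes the EGF receptor of the worm. Its region held 4 peaks of the conservative ranked list, with signals of 30.8 to 38.3, and the lowest IDR among them was 0.264. The IDR, or irreproducible discovery rate, is the estimated rate of irreproducible peaks among those ranked at least as well in the lists compared. It depends on how high a peak ranks as well as on how alike its ranks are. The highest value in the thresholded lists was 0.01. The highest of these peaks lay in an intron 4832 bp downstream of the start, and the replicates' own ranked lists had peaks of 26 in replicate 1 and 13 in replicate 2 there. In replicate 1 the region held 9 ranked peaks with signals of 9.6 to 26, and in replicate 2 it held 4 with signals of 13 to 20.9. None was past the threshold in any of the 4 ranked lists. The ranked lists run far below the threshold, with a median signal of 21.3 over all 48593 conservative ranked peaks, so the conservative peaks at let-23 were above that median and below the 73.8 of the thresholded ones.

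LIN-7 is a PDZ protein that, with LIN-2 and LIN-10, keeps LET-23 at the basolateral membrane of vulval precursor cells. The lin-7 gene (WBGene00002996, chromosome II, 14345844 to 14349406, minus strand) had a conservative peak at 14349531 to 14349826 with a signal of 48.6 and an IDR of 0.00559, the lowest signal of the 7 and rank 2060 of the 2243 nuclear conservative peaks. The overlapping peaks of the own ranked lists had signals of 26.9 in replicate 1 and 30.6 in replicate 2 (mean 28.7 ± 2.6, SD, n = 2), so the replicates were close, but neither passed the threshold within its own replicate. The summit was 273 bp upstream of lin-7 and 59 bp upstream of elof-1, a gene on the opposite strand that encodes a homologue of the transcription elongation factor ELOF1. The start of lin-7 is that of the transcript Y54G11A.10b.1, and the gene Y54G11A.17, annotated on the same strand, begins at the same base. The peak could therefore belong to any of 3 annotated genes, and these lists do not tell them apart. Further ranked peaks lay over a coding exon of elof-1, 864 bp upstream of lin-7, with a signal of 41.2 and an IDR of 0.189, and over a coding exon of the next gene, agl-1, 1542 bp upstream, with 41.6 and 0.0967.

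SEM-5 is the SH2 and SH3 adaptor, the worm GRB2, that couples activated LET-23 and the FGF receptor to the exchange factor SOS-1. The sem-5 gene (WBGene00004774, chromosome X, 7959453 to 7961723, minus strand) had a conservative peak at 7962233 to 7962528 with a signal of 111.2, an IDR of 7.25e-05 and rank 348. The replicates' own ranked lists gave 61.9 in replicate 1 and 41.9 in replicate 2 (51.9 ± 14.2, SD, n = 2), and the peak was past the threshold in each of them, with IDRs of 3.24e-05 and 0.00158. It is intergenic, 658 bp upstream of the gene start, and no other protein-coding start was nearer. The nearest annotated gene of any kind was the piRNA gene 21ur-13424, 319 bp away. The summits of the replicates were 67 bp apart, against a median of 28 bp (quartiles 12 and 55 bp) over 2192 nuclear conservative peaks with a peak in each replicate's ranked list.

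LET-60 is the worm Ras GTPase. The let-60 gene (WBGene00002335, chromosome IV, 11688227 to 11691088, minus strand) had a conservative peak at 11692425 to 11692720 with a signal of 81.4, an IDR of 0.00614 and rank 898. The replicates were far apart here, at 22.0 in replicate 1 and 54.5 in replicate 2 (38.3 ± 23, SD, n = 2). The ratio of 2.48 between replicate 2 and replicate 1 was matched or exceeded by 19 of 2192 nuclear conservative peaks (0.87%), whose median ratio was 1.14 (quartiles 0.92 and 1.41). The peak was not past the threshold in either replicate's own list, nor in the series list, where the same peak ranked with an IDR of 0.497. Its summit, 1485 bp upstream of let-60, lay in the exon of ZK792.10, a gene of the annotation class ncRNA, and was 1220 bp from the start of the protein-coding gene ZK792.12, nearer than to that of let-60.

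CNK-1 is a scaffold that binds and promotes activation of Raf. The cnk-1 gene (WBGene00000564, chromosome III, 10271257 to 10278579, plus strand) had the strongest peak of the 7, at 10270903 to 10270986, with a signal of 151.1 and rank 121 of 2243, above 94.6% of nuclear conservative peaks. The signals in the own ranked lists were 87.2 in replicate 1 and 63.0 in replicate 2 (75.1 ± 17.1, SD, n = 2), both higher than that of any other of the 7 in the same replicate. Its IDR was 1e-05, the lowest value the lists give, in the conservative, series and replicate 1 lists and 0.000144 in replicate 2. The summit was intergenic and 273 bp upstream of cnk-1. The listed peak is only 84 bp wide and its summit lies 2 bp from its right edge. The quartiles of peak width over all nuclear conservative peaks were both 296 bp, and 38 of 2243 (1.69%) were narrower than 100 bp. In the replicates' own lists the same peak was wider, with summits at 10270941 and 10270977, 36 bp apart.

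The Raf kinase gene lin-45 (WBGene00003030, chromosome IV, 6742537 to 6748572, minus strand) had no thresholded peak in any list. Of the 8 conservative ranked peaks in its region, the highest had a signal of 38.2 and lay over a coding exon 2566 bp downstream of the start. Its IDR was 0.248 in the conservative list and 0.0581 in the series list, and the own ranked lists gave 23.5 in replicate 1 and 15.1 in replicate 2. The MEK gene mek-2 (WBGene00003186, chromosome I, 3005403 to 3013448, minus strand), which encodes the kinase that phosphorylates MPK-1, held 12 conservative ranked peaks with signals of 4.9 to 40.7 and a lowest IDR of 0.267. The highest, in an intron, had 25.7 in replicate 1 and 15 in replicate 2. The highest ranked signals at let-23, lin-45 and mek-2 (38.3, 38.2 and 40.7) were all below the 48.6 of the weakest thresholded peak among the 10 genes. Elsewhere thresholded conservative peaks had lower signals, with 40.6 at the pathway gene soc-2 and 2.1 as the lowest of all nuclear ones. A signal in this range does not by itself separate thresholded peaks from the rest.

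MPK-1 is the ERK kinase that phosphorylates LIN-1. The mpk-1 gene (WBGene00003401, chromosome III, 4216763 to 4228108, minus strand) had its conservative peak in an intron, at 4223656 to 4223951, with a signal of 68.2, an IDR of 0.00538 and rank 1342. The own ranked lists gave 24.0 in replicate 1 and 38.0 in replicate 2 (31.0 ± 9.9, SD, n = 2), neither past the threshold, and in the series list the same peak had an IDR of 0.0913. The summit was 4304 bp inside the gene, counted from its start, where the transcript F43C1.2a.1 begins, and 4161 bp upstream of the start of the short transcript F43C1.2a.2. Between the replicates the summits were 85 bp apart, the largest offset of the 7. A further intronic peak, 709 bp downstream of the gene start, was just short of the threshold, with a signal of 46.0 and an IDR of 0.0117 in the conservative list, but had an IDR of 0.127 in the series list. The replicates were nearly level there, with 24.8 in replicate 1 and 27.2 in replicate 2.

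EOR-2 is a nuclear protein that works with the zinc finger protein EOR-1 to promote Ras signalling. The eor-2 gene (WBGene00001325, chromosome X, 14603017 to 14608660, plus strand) had a conservative peak at 14602719 to 14603014 with a signal of 81.7, an IDR of 0.000493 and rank 891. The signals were 43.0 in replicate 1 and 36.4 in replicate 2 (39.7 ± 4.7, SD, n = 2), and the peak was past the threshold in each own list, with IDRs of 0.00501 and 0.00781. Its intergenic summit was the nearest of the 7 to the start of its gene, 150 bp upstream, and the replicate summits were 11 bp apart. The conservative signal was almost the same at let-60 and eor-2 (81.4 and 81.7), but the replicates differed by 2.48-fold at let-60 and had a ratio of 0.85 at eor-2.

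LIP-1 is a dual-specificity phosphatase that inactivates MPK-1, and its gene is a known target of Notch signalling in vulval precursor cells and the germline. The lip-1 gene (WBGene00003043, chromosome IV, 6842958 to 6846011, plus strand) had a conservative peak at 6839136 to 6839431 with a signal of 66.0, an IDR of 0.00203 and rank 1438. The own ranked lists gave 31.4 in replicate 1 and 33.6 in replicate 2 (32.5 ± 1.6, SD, n = 2), the smallest spread of the 7, although neither was past the threshold. The summit was 3674 bp upstream of lip-1, whose start was still the nearest of a protein-coding gene, and 23 bp from C05B10.19, a name the annotation gives to a pair of ncRNA genes at the same bases on opposite strands. Closer to the gene, 950 bp upstream, a peak with a signal of 43.7 missed the threshold with an IDR of 0.0503 in the conservative list and 0.0311 in the series list. Its own ranked values were 23.3 in replicate 1 and 20.3 in replicate 2.

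**Figure D2:**
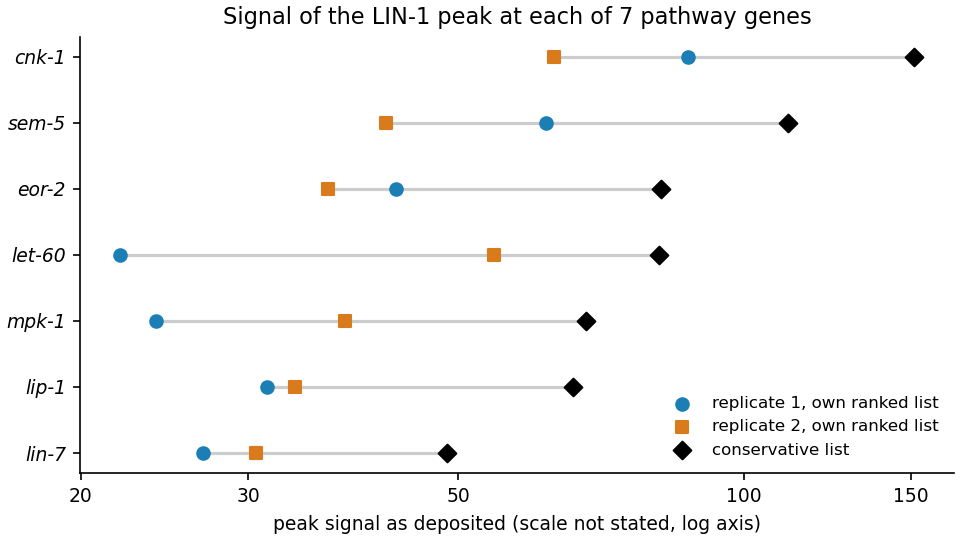
Signal of the conservative peak at each of the 7 genes (diamonds) and of the overlapping peak in the own ranked list of replicate 1 (circles) and replicate 2 (squares), on a log axis in the authors' unstated unit; grey lines join the values of a gene. The replicate values are closest at lip-1 (31.4 and 33.6) and farthest apart at let-60 (22.0 and 54.5).

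Across the 7 peaks, replicate 1 was the higher at cnk-1, sem-5 and eor-2, and replicate 2 at lin-7, lip-1, mpk-1 and let-60. The median ratio of replicate 2 to replicate 1 over nuclear conservative peaks was 1.14, so lin-7 (1.14) and lip-1 (1.07) were near it. The ratio at sem-5 (0.68) was matched or exceeded by 94.39% of nuclear peaks, and that at cnk-1 (0.72) by 91.83%. For eor-2 (0.85) the share was 83.07%, for mpk-1 (1.58) 14.87% and for let-60 (2.48) 0.87%. The 3 where replicate 1 was higher were also the 3 past the threshold in both replicates' own lists, and the other 4 were past it in neither. Over all 2243 nuclear conservative peaks, 30.2% were in both own lists, 34.5% in 1 of them and 35.3% in neither. The 3 found in both own lists were intergenic and within 1000 bp upstream of the gene start. The conservative signal was close to the sum of the replicate signals, from 0.85 of it at lin-7 to 1.1 times it at mpk-1, as it was over all nuclear peaks (median 0.99). The signals of the 7 had a median of 81.4 and ran from 48.6 to 151.1, against a median of 73.8 (quartiles 60.6 and 96.1) over all nuclear conservative peaks, and 2 of them, at cnk-1 and sem-5, lay above the upper quartile.

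**Figure D3:**
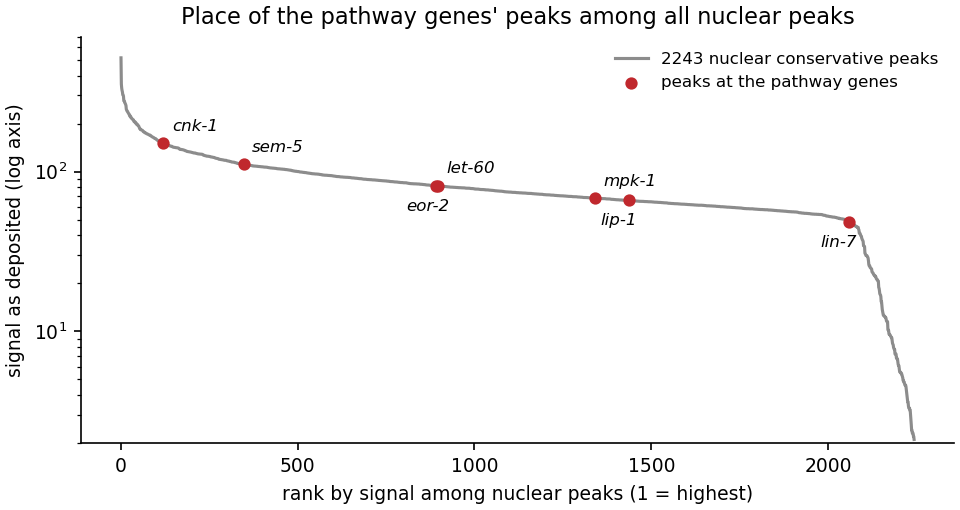
Signal against rank for the 2243 nuclear conservative peaks (line, log axis, authors' unit) with the 7 peaks at pathway genes marked. The cnk-1 peak is at rank 121 and the lin-7 peak at rank 2060, so the 7 run from near the top of the curve to near its lower end.

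The count of genes with a peak depended on the list. In the series list 5 of the 10 genes had a summit in the region (background 15.1%), since the let-60 and mpk-1 peaks were not in it. Of all nuclear conservative peaks, 14.7% had no overlapping peak in the series list. In replicate 1's own list 3 genes had a summit (background 7.99%), and in replicate 2's own list the same 3, which were sem-5, cnk-1 and eor-2 (background 9.95%). At a global IDR of 0.001 or less, the conservative list also kept these 3 (background 8.71%). Just inside the threshold of 0.01 lay the peaks at let-60 (0.00614), lin-7 (0.00559) and mpk-1 (0.00538), and just outside it the other mpk-1 peak (0.0117). The next peaks, farther outside, were the nearer lip-1 peak (0.0503) and the peak 1542 bp upstream of lin-7 (0.0967). The 4 conservative peaks past the threshold in neither own list differed in their IDRs there, given for replicate 1 first. They were 0.0838 and 0.0423 at lin-7, 0.0711 and 0.0953 at lip-1, 0.747 and 0.114 at let-60, and 0.205 and 0.721 at mpk-1.

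**Figure D4:**
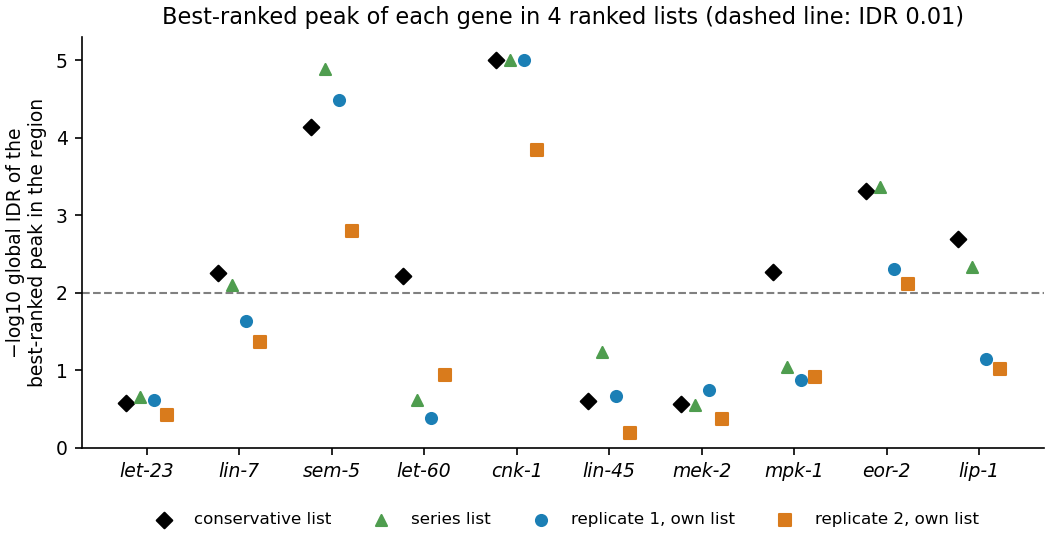
The −log10 of the global IDR of the best-ranked peak in the region of each gene, in the conservative list (diamonds), the series list (triangles) and the own ranked lists of replicate 1 (circles) and replicate 2 (squares); the dashed line is an IDR of 0.01. At cnk-1, sem-5 and eor-2 all 4 marks are above the line, at lin-7 and lip-1 the conservative and series marks, at let-60 and mpk-1 the conservative mark only, and at let-23, lin-45 and mek-2 no mark. The marks of a gene can stand for different peaks. At mpk-1 both replicate marks are peaks 736 and 626 bp into the gene. At let-60 the series and replicate 1 marks lie 4716 and 4715 bp upstream, and at lin-7 the replicate 1 mark lies 1602 bp upstream.

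A wider list of the pathway was taken from general knowledge of it, and 30 of its 31 further genes could be matched to the annotation by name. This list too was chosen with earlier results of these data known, so its shares are given as a description. They cover the ligand and its processing, receptor localisation, exchange and GTPase-activating factors, scaffolds, phosphatase subunits, nuclear factors and modulators. Of these 30, 5 (16.7%) had a conservative summit between 5 kb upstream and the gene end, which is near the 14.9% of all genes, and none had one in the promoter window. Together with the 10 genes this makes 12 of 40 genes (30%) with a summit in the region and 4 of 40 (10%) with a promoter summit. The 5 were gap-2, soc-2, sur-6, lin-1 and sli-1. Their regions were 48985, 30451, 8779, 29426 and 10732 bp long in that order, against a median of 7027 bp over all genes. No share was taken over genes with regions as long as those of the 30. The ligand gene lin-3, the exchange factor gene sos-1, the scaffold genes ksr-1 and ksr-2 and the nuclear factor genes lin-31, eor-1, sur-2 and lin-25 had none. In replicate 2's own list 6 of the 30 genes (20%) had a summit (background 9.95%), against 1 of 30 in replicate 1's (background 7.99%). Of those 6, sos-1 and rgl-1 had a summit in that list alone, and unc-101 in that list and the series list.

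The gap-2 gene, for a GTPase-activating protein that turns Ras off, had the strongest of these peaks, with a conservative signal of 103.7 (54.5 in replicate 1 and 51.7 in replicate 2), but its summit lay 4676 bp upstream and inside a tRNA gene, 4449 bp from the nearer start of ZK899.6. At sli-1, which encodes the worm CBL ubiquitin ligase that dampens LET-23, an intergenic peak 1946 bp upstream reached 79.9 in the conservative list, 32.1 in replicate 1 and 51.3 in replicate 2. The sur-6 gene, for a regulatory subunit of phosphatase PP2A, had a peak of 58.5 (31.0 in replicate 1 and 29.9 in replicate 2) over the ncRNA gene K02A11.6, 1597 bp upstream. The scaffold gene soc-2 had an intronic peak of 40.6 (24.8 in replicate 1 and 30 in replicate 2) that lay 106 bp upstream of the start of the transcript AC7.2a.1. The lin-1 gene itself, which carries the tag, had 3 intronic summits, of which 1 repeats the replicate signals of a stronger one, and the highest was at 91.4 (27.9 in replicate 1 and 68.0 in replicate 2).

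**Figure D5:**
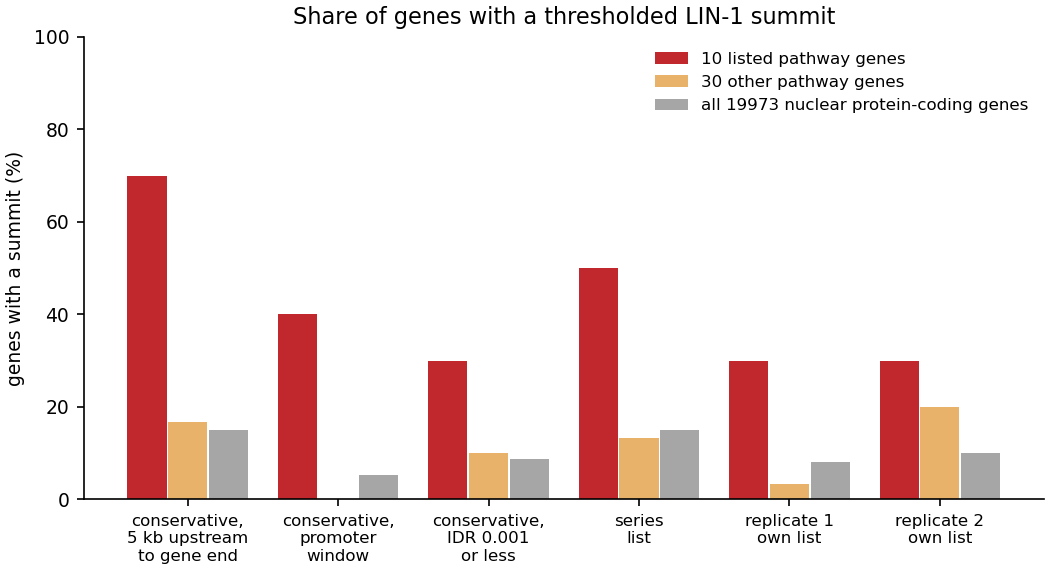
Share of genes with a thresholded summit, in percent, for the 10 listed pathway genes, the 30 other pathway genes and all 19973 nuclear protein-coding genes, under 6 choices of list or window; all but the promoter window count summits from 5 kb upstream to the gene end. The listed genes are at 70% in the conservative list against 14.9% of all genes, and at 30% in either replicate's own list; the list had been drawn up with earlier results of these data known.

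The promoter peaks of the 4 genes had near matches elsewhere among the promoter peaks of other genes (888 peaks, and 887 for lin-7), by the distance between the pairs of replicate signals on the log2 scale, over 2 replicates. The match was trap-3 for cnk-1 (83.4 in replicate 1 and 69.2 in replicate 2, distance 0.148), ntl-11 for sem-5 (62.7 and 43.7, distance 0.066), C16B8.3 for eor-2 (42.1 and 36.3, distance 0.03) and zip-11 for lin-7 (26.5 and 30.5, distance 0.02). Their conservative signals, in the same order, were 151.4, 100.5, 77.1 and 60.3, against 151.1, 111.2, 81.7 and 48.6 at the 4 genes. With so many peaks searched on 2 values, a near match is likely for most peaks. No typical distance was taken, so the matches are a description. The nearest other conservative summit was 14.1 kb away at mpk-1 and between 24.7 kb (sem-5) and 98.7 kb (let-60) away at the others, against a median of 6.1 kb (quartiles 1.3 and 23.7 kb) over all nuclear conservative summits.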

How the data were processed

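The authors deposited peak lists on ce11, per the labels, made from ce11 alignments and ranked by IDR, per the file headers of the README notes; which caller and aligner were run is not given in the sources used here. The signal of each peak, the peak score (not used) and, in 4 ranked lists, the −log10 of the global IDR (capped at 5) are the authors' deposited values. Every thresholded peak was found in its ranked list at an IDR of 0.01 or less. Gene starts, ends and biotypes came from Ensembl release 115, and bases from the RefSeq copy of WBcel235, the same assembly as ce11; 0 ranked peaks lay beyond a chromosome end. Coordinates are 1-based. A replicate's signal is the highest of its own ranked peaks that overlap the conservative peak by 1 bp or more. The replicate lists were made separately, so their levels are set side by side with no test.

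The 10 genes and the wider list were chosen with earlier results of these data known. No test was run: there is 1 group, and counts stand beside the same counts over all nuclear protein-coding genes. The genes named are the 10, the wider-list genes with a conservative summit, the genes nearest each summit and, for promoter peaks, the best match in replicate signals; agl-1, sos-1, rgl-1, unc-101, ZK899.6, Y54G11A.17 and the wider-list genes named as lacking a peak were chosen after their values were seen. Counting and motif search were tested on simulated data with planted summits and motifs. Software was Python 3.11.15, pandas 2.3.3 and numpy 2.4.6.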

Additional observations from a re-analysis of the deposited data

How the results depend on the processing

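Of the 10 genes, 7 had a summit in the region. The count was 3 without either replicate (3 to 3, the other replicate's own list), 3 at an IDR of 0.001 or less and 1 in the gene body alone, and it stayed between 5 and 8 with the series list, without peaks that repeat a stronger peak's pair of signals, without summits near tRNA genes, with 2 or 10 kb upstream, with the upstream part alone and with peak overlap. Fewer peaks entered in the first 2 settings. The promoter count of 4 stayed between 3 and 5 under all alternatives run. The share over all genes was taken for the main promoter setting only (5.25%), so the other promoter counts have no background beside them. For the other pathway genes the count of 5 ranged from 1 to 6 when a replicate was left out (6 without replicate 1, 1 without replicate 2), and was 3 at the stricter IDR, 10 of 30 with 10 kb upstream, 2 in the gene body and 3 upstream only. Over all genes the shares were 9.95% without replicate 1, 7.99% without replicate 2 and 8.71% at the stricter IDR. They were 22.0% with 10 kb upstream, 10.1% with 2 kb, 3.38% in the gene body and 12.3% upstream only. The 1 window with CGGAA became 0 with 25 bp to each side and 2 with 100 bp to each side. No share over all nuclear summits was taken at these 2 lengths, and a longer window has more room for a match. The count was 2 for GGAA, 0 for CCGGAAG and 7 for GAGA, a word chosen after the windows had been read. It was 6 of 14 in windows centred 500 bp to each side (17.0% of such windows over all nuclear summits). The series list carries the same signal as the conservative list at all 10 genes, so it is no check of the signal. With a replicate left out, the highest signal was lower at all 10 genes, at 15 to 87.2. Since the conservative signal was close to the sum of the replicate signals, this fall was built in and is no check either. No paired analysis was possible because there is 1 group. Depth is unknown, so a gene with no thresholded peak is not shown to be unbound.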

Other observations

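GAGA, or TCTC on the other strand, was in all 7 summit windows of the pathway genes, from 2 matches at sem-5, eor-2 and lin-7 to 5 at cnk-1. The word was chosen after the windows had been read, so its count is a description. It was in 71.4% of windows at all nuclear conservative summits, in 54.3% of those centred 500 bp to each side and in 55.4% of those 150 bp upstream of gene starts. The GC content of the 7 windows ran from 41.6% (mpk-1) to 55.4% (cnk-1), against a median of 45.5% (quartiles 39.6 and 51.5%) over all nuclear summit windows.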
